A study of Rattus norvegicus with 12 samples.

Results

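Amino acid catabolism is described here through 48 genes that code for enzymes which break amino acids down, or which handle the nitrogen and carbon released from them. The genes were chosen by name and with earlier results of these data known, so the counts given beside all genes are a description. A gene was measured where the array annotation gives a probe set row to its symbol alone. This held for 45 of the 48 genes, out of 18166 genes in all, and each of the 45 had exactly 1 such row. Gcsh shares its row with another symbol, and no row was named for Afmid or Amt in the annotation used, so these 3 genes have no values here.

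The arrays came from male Sprague-Dawley rats in which the inferior vena cava had been tied off between the renal veins, a procedure that raises venous pressure in the left kidney and spares the right. After 3 days, RNA was taken from the congestive left kidney and from the control right kidney, and cortex and outer medulla were hybridised separately to GeneChip Rat Gene 2.0 ST arrays. The 4 groups of 3 arrays were cortex of congestive kidneys, cortex of control kidneys, outer medulla of congestive kidneys and outer medulla of control kidneys. All groups carried the ligation and surgery, since the control kidney is the other kidney of an operated rat, and sham-operated kidneys are not analysed here.

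Values are on a log2 scale, so that a difference of 1 is a doubling, and were normalized between arrays by the authors. Array medians over all 36685 probe set rows lay between 6.02 and 6.09. Over the same rows, Pearson's r was 0.988 to 0.991 between arrays of the same group. The labels of the regions fitted the markers: 6 of 6 genes of the early proximal tubule and 4 of 4 podocyte genes passed the test as higher in cortex of control kidneys, and 6 of 7 genes of the thick ascending limb as lower. In congestive kidneys, 11 of 12 macrophage and monocyte genes in cortex and 12 of 12 in outer medulla passed as higher. The same held for 8 of 9 fibroblast genes in cortex and 9 of 9 in outer medulla. In bulk tissue, fewer cells of a type and less RNA per cell cannot be told apart. A change is the congestive minus the control value, fitted with limma over kidneys with the same replicate number, which were taken as pairs although the labels do not tie a number to a rat. Both regions were in the same fit and shared the same estimate of the spread for each gene. The standard error of a cortical change therefore also holds the spread of the outer medulla pairs. A gene passed the test when its p, with Benjamini-Hochberg adjustment over all 18166 genes, was below 0.05, and the value after each ± is a standard error unless an SD is named.

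The kidney is a major site of amino acid breakdown, and most of the enzymes described here sit in the mitochondria, peroxisomes or cytosol of the proximal tubule. The branched-chain amino acids leucine, isoleucine and valine lose their nitrogen by transamination, after which a mitochondrial dehydrogenase commits their carbon skeletons to oxidation. Tryptophan is broken down through kynurenine, and tyrosine through homogentisate to fumarate and acetoacetate. The kidney also makes arginine from citrulline and guanidinoacetate, the precursor of creatine, from arginine and glycine.

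Most of the members were lower in congestive kidneys, and by limma more of them passed in outer medulla than in cortex. An unpaired equal-variance t-test, which takes its spread from the 2 groups compared alone, gave the other order before adjustment. It is called the methods' t-test here. The study's methods name a t-test for comparing 2 groups, without saying whether it was paired or used for the arrays. In outer medulla, 35 of the 45 measured members fell (77.8%), none rose at an adjusted p below 0.05, and 10 did not pass the test, while 11.3% of all genes tested were called lower and 11.8% higher. At an unadjusted p below 0.05 the limma counts were 37 lower and 0 higher. The methods' t-test gave 24 lower and 0 higher before adjustment and 3 lower after it. Over all 18166 genes, in either direction, that t-test called 4899 in outer medulla before adjustment and 1040 after it. In cortex, 13 members fell (28.9%), Tdo2 rose and 31 did not pass, against 3.64% of all genes called lower and 7.98% higher. There the limma counts at an unadjusted p below 0.05 were 23 lower and 1 higher. The methods' t-test gave 31 lower and 1 higher before adjustment and 2 lower after it. Over all genes, in either direction, that t-test called 4464 in cortex before adjustment and 183 after it. For limma at an unadjusted p, no count over all genes is given here. The median change of the members was -0.67 in outer medulla and -0.35 in cortex, and the medians over all genes were -0.009 and -0.024. Values lay below 0 for 43 members in outer medulla and for 40 in cortex. All 3 congestive arrays lay below all 3 control arrays for 30 members in outer medulla and for 35 in cortex, which was the case for 17.5% and 16.8% of all genes. Both regions called 10 members lower, namely Bckdha, Bcat2, Ivd, Mccc2, Auh, Pcca, Pccb, Got1, Oat and Asl, while 1.99% of all genes were called lower in both. Fewer members passed with a replicate left out. Without replicate 1, 2 or 3, 3, 3 and 5 members fell in cortex, Gldc, Asl and Bcat2 each time, and 20, 24 and 35 fell in outer medulla. The 15 lost in outer medulla without replicate 1 were Aass, Acmsd, Agxt2, Aldh6a1, Asl, Ass1, Bhmt, Dao, Ddo, Glud1, Hgd, Hibch, Hpd, Kmo and Sardh. Without a replicate block, 29 fell in outer medulla, with Aass, Agxt2, Asl, Bhmt, Ddo and Hpd lost, and 10 in cortex, with Ddc, Got1, Oat and the rise of Tdo2 lost. In the main comparison, Prodh2, Gldc and Ddc passed in cortex alone and 25 members in outer medulla alone, a statement about the threshold and not about a difference between the regions.

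**Figure D1:**
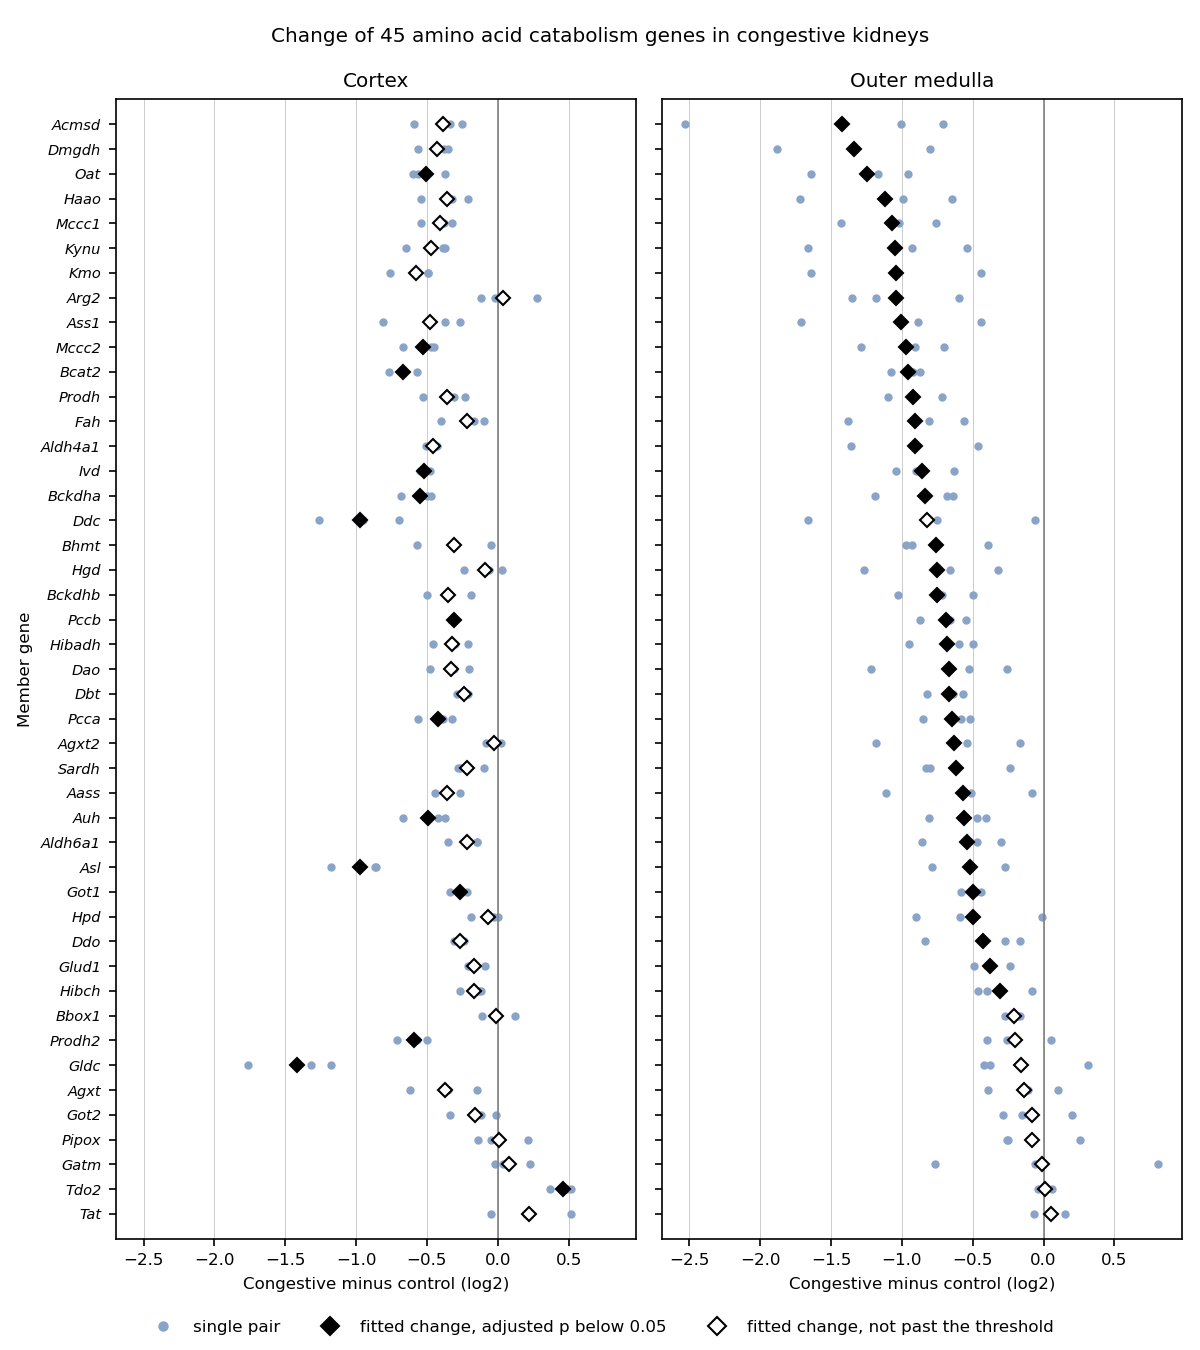
Change of each of the 45 members, congestive minus control on the log2 scale, in cortex (left) and outer medulla (right). Small dots are the 3 pairs of kidneys and diamonds the fitted change, black where the adjusted p was below 0.05. Acmsd, with -1.42, stands at the top in outer medulla, and its pairs are spread widely, whereas Gldc has its fall of the same size in cortex.

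All 13 genes of branched-chain amino acid breakdown passed as lower in outer medulla (median change -0.69) and 7 of 13 in cortex (median -0.41). By the methods' t-test all 13 were lower in each region before adjustment. In outer medulla 11 of 13 passed without outer medulla congestion replicate 2. For every one of these genes, in both regions, the 3 congestive arrays lay below the 3 control arrays. Bcat2 codes for the mitochondrial aminotransferase that takes the first step. It read 7.82, 7.73 and 7.89 in outer medulla of congestive kidneys, against 8.74, 8.81 and 8.76 in control kidneys, and 7.92, 7.74 and 7.92 in cortex of congestive kidneys, against 8.49, 8.52 and 8.60 in control kidneys. The groups were far apart for their spread in both regions, with changes of -0.96 ± 0.08 in outer medulla (adjusted p = 1.5e-04) and -0.67 ± 0.08 in cortex (adjusted p = 0.0018).

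The dehydrogenase complex that follows is built from Bckdha, Bckdhb and Dbt, the first pair coding for subunits of the decarboxylase and Dbt for the transacylase core. Bckdha read 7.74, 7.29 and 8.03 in outer medulla of congestive kidneys and 8.42, 8.48 and 8.68 in control kidneys, a change of -0.84 ± 0.12. In cortex it read 8.12, 7.93 and 8.26 in congestive kidneys and 8.59, 8.61 and 8.76 in control kidneys, a change of -0.55 ± 0.12 (adjusted p = 0.021). Bckdhb and Dbt fell by 0.75 and 0.67 in outer medulla, whereas their changes in cortex, -0.35 and -0.24, missed the threshold with adjusted p = 0.086 and 0.085.

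Of the leucine branch, Ivd (isovaleryl-CoA dehydrogenase), Mccc2 (a subunit of methylcrotonyl-CoA carboxylase) and Auh (methylglutaconyl-CoA hydratase) fell in both regions. Mccc1, the other subunit of the carboxylase, had the largest change of the group in outer medulla. It read 9.27, 8.80 and 9.62 in congestive kidneys and 10.29, 10.23 and 10.37 in control kidneys, which is -1.07 ± 0.12 or 2.10-fold lower (adjusted p = 7.3e-04). Its cortical change was -0.41 and did not pass (adjusted p = 0.07). Pcca and Pccb, the subunits of propionyl-CoA carboxylase, fell by 0.65 and 0.69 in outer medulla and by 0.42 and 0.31 in cortex. In the valine branch, Hibch, Hibadh and Aldh6a1 fell by 0.31, 0.68 and 0.54 in outer medulla, and none of them passed in cortex, where their values were -0.17, -0.32 and -0.22. Without outer medulla congestion replicate 2, Hibch and Aldh6a1 did not pass in outer medulla either, with -0.24 and -0.39 (adjusted p = 0.24 and 0.053).

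In the kynurenine pathway, 4 of 5 measured genes fell in outer medulla, and none of the 5 fell in cortex at an adjusted p below 0.05, where 2 were lower at an unadjusted p below 0.05. The methods' t-test before adjustment gave the other order, with 1 of 5 lower in outer medulla, Kynu, and 4 in cortex. Acmsd codes for the decarboxylase that diverts an intermediate away from NAD synthesis. It read 10.38, 8.72 and 10.73 in outer medulla of congestive kidneys and 11.40, 11.25 and 11.44 in control kidneys. All 3 congestive arrays were below the control arrays, and replicate 2 was far below the others. The change was -1.42 ± 0.29, or 2.67-fold, with a 95% interval of -2.10 to -0.74 (adjusted p = 0.01), and the SD of 1.07 among the congestive arrays was the highest of any member. Without outer medulla congestion replicate 2 the value was -0.86 (adjusted p = 0.0056), and without replicate 1 it was -1.62 and did not pass (adjusted p = 0.053).

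Haao, hydroxyanthranilate dioxygenase, read 9.24, 8.27 and 9.64 in outer medulla of congestive kidneys and 10.23, 9.98 and 10.29 in control kidneys, a change of -1.12 ± 0.18. Kynu, kynureninase, read 8.43, 7.63 and 8.86 in congestive kidneys and 9.36, 9.29 and 9.40 in control kidneys, a change of -1.05 ± 0.18. Kmo, which hydroxylates kynurenine, fell by 1.04 ± 0.19 there. The order of the congestive arrays was the same for these 4 genes, with replicate 2 lowest and replicate 3 highest. In cortex the 4 genes had values of -0.36 to -0.58 for Haao, Acmsd, Kynu and Kmo, with adjusted p of 0.094 or more by limma, whose spread is shared with outer medulla. For all 4 the congestive arrays lay below the control arrays in cortex.

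Tdo2, the dioxygenase that opens the pathway in liver, was the only member called higher in either region. It was dim throughout: 4.25, 4.47 and 4.24 in cortex of congestive kidneys and 3.76, 3.95 and 3.87 in control kidneys, all below the array medians. The change was 0.46 ± 0.07 (adjusted p = 0.006), and without a replicate block it was 0.46 with adjusted p = 0.053. In outer medulla the groups overlapped and the change was 0.01 ± 0.07.

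Of the 4 tyrosine genes, Hpd, Hgd and Fah fell in outer medulla, and none passed in cortex by limma at an adjusted p below 0.05, at an unadjusted p below 0.05 (0 of 4) or by the methods' t-test (0 of 4), which gave 1 lower in outer medulla before adjustment. Hgd, homogentisate dioxygenase, read 10.77, 10.06 and 11.15 in outer medulla of congestive kidneys and 11.44, 11.33 and 11.47 in control kidneys, a change of -0.75 ± 0.16 (adjusted p = 0.012), or -0.49 without outer medulla congestion replicate 2 (adjusted p = 0.041). Fah, the hydrolase at the end of the pathway, fell by 0.91 ± 0.14 (adjusted p = 0.0032). For both genes the 3 congestive arrays lay below the 3 control arrays. Hpd, hydroxyphenylpyruvate dioxygenase, changed by -0.50 ± 0.15 (adjusted p = 0.046), its congestive arrays of 11.04, 10.79 and 11.88 overlapped the control arrays of 11.63, 11.69 and 11.89, and without outer medulla congestion replicate 2 the change was -0.30 (adjusted p = 0.26). In cortex the 95% intervals were -0.42 to 0.27 for Hpd, -0.46 to 0.28 for Hgd and -0.56 to 0.11 for Fah. Tat, the liver aminotransferase that feeds this pathway, was dim on all arrays and did not pass in either region.

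Among the D-amino acid oxidases and glyoxylate aminotransferases, Dao, Ddo and Agxt2 fell in outer medulla by 0.67, 0.43 and 0.63, and none of these falls passed without outer medulla congestion replicate 2, where they were -0.39, -0.22 and -0.36 (adjusted p = 0.072, 0.19 and 0.093). Dao, which oxidises neutral D-amino acids, read 11.08, 10.36 and 11.51 in outer medulla of congestive kidneys and 11.61, 11.58 and 11.76 in control kidneys. The 3 congestive arrays were lower, the nearest by little. No gene of this group passed in cortex, with 1 lower by limma at an unadjusted p below 0.05. By the methods' t-test before adjustment 0 were lower in outer medulla and 2 in cortex. Agxt, the peroxisomal aminotransferase of liver, was dim and did not pass in either region.

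The enzymes that turn proline and ornithine into glutamate fell in both regions in part. Oat, ornithine aminotransferase, read 10.61, 10.18 and 10.88 in outer medulla of congestive kidneys and 11.78, 11.82 and 11.83 in control kidneys, so that the groups were separated by most of a log2 unit. It fell there by 1.25 ± 0.13, or 2.39-fold (adjusted p = 3.8e-04), and in cortex by 0.51 ± 0.13 (adjusted p = 0.037). The cortical arrays of 9.92, 10.11 and 9.84 in congestive kidneys and 10.48, 10.71 and 10.22 in control kidneys did not overlap. Without a replicate block the cortical change of Oat had adjusted p = 0.066.

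Prodh, proline dehydrogenase, and Aldh4a1, the dehydrogenase that follows it, fell by 0.92 ± 0.10 and 0.91 ± 0.15 in outer medulla, with cortical values of -0.36 and -0.46 that missed the threshold (adjusted p = 0.053 and 0.083). Prodh2, which oxidises hydroxyproline, passed as lower in cortex and not in outer medulla. It read 8.94, 8.62 and 8.80 in cortex of congestive kidneys and 9.51, 9.34 and 9.30 in control kidneys, a change of -0.59 ± 0.10 (adjusted p = 0.0084). In outer medulla it was much lower in both conditions, with 6.36, 6.34 and 6.75 in congestive kidneys and 6.76, 6.60 and 6.70 in control kidneys, groups that overlapped (-0.20 ± 0.10, adjusted p = 0.2). The difference of the Prodh2 changes between regions did not pass (0.39 ± 0.14, limma adjusted p = 0.24). Its cortical call was lost without replicate 1 or 2 (limma adjusted p = 0.051 and 0.094).

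Gldc codes for the decarboxylase of the glycine cleavage system and had the largest change of any member in cortex. It read 8.40, 7.38 and 7.79 in cortex of congestive kidneys and 9.58, 9.15 and 9.11 in control kidneys. Every congestive array was below every control array, although the congestive arrays were spread over 1 log2 unit. The change was -1.42 ± 0.16, or 2.68-fold, with a 95% interval of -1.79 to -1.05 (adjusted p = 0.0016), and it passed whichever replicate was left out. In outer medulla Gldc was low in both conditions, with 6.31, 6.17 and 6.39 in congestive kidneys and 6.73, 6.56 and 6.08 in control kidneys, a change of -0.16 ± 0.16.

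Got1, the cytosolic aspartate aminotransferase, fell by 0.50 ± 0.07 in outer medulla and by 0.27 ± 0.07 in cortex, where the adjusted p was just under the threshold and 0.079 without a replicate block. Got2, its mitochondrial counterpart, passed in neither region, with -0.08 ± 0.11 in outer medulla and -0.16 ± 0.11 in cortex. Glud1, glutamate dehydrogenase, fell by 0.38 ± 0.08 in outer medulla and had a value of -0.17 in cortex. Its outer medulla value was -0.32 without outer medulla congestion replicate 2 (adjusted p = 0.081).

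Arginine genes differed among themselves. Asl, argininosuccinate lyase, which releases arginine, read 8.92, 8.68 and 9.37 in cortex of congestive kidneys and 9.78, 9.86 and 10.24 in control kidneys. The groups did not overlap, and the change was -0.97 ± 0.11, or 1.96-fold (adjusted p = 0.0018). In outer medulla it was -0.52 ± 0.11 with overlapping groups (adjusted p = 0.013), and -0.39 without outer medulla congestion replicate 2 (adjusted p = 0.087).

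Ass1, argininosuccinate synthase, which acts before Asl, read 9.91, 8.94 and 10.53 in outer medulla of congestive kidneys and 10.80, 10.65 and 10.97 in control kidneys, a change of -1.01 ± 0.21 (adjusted p = 0.011), or -0.66 without outer medulla congestion replicate 2 (adjusted p = 0.04). In cortex it read 11.92, 11.35 and 11.86 in congestive kidneys and 12.18, 12.16 and 12.23 in control kidneys. These cortical groups did not overlap, but the change of -0.48 ± 0.21 did not pass (adjusted p = 0.19). This standard error also holds the wide spread of the outer medulla pairs.

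Arg2, the mitochondrial arginase that splits arginine into ornithine and urea, read 8.23, 8.17 and 8.73 in outer medulla of congestive kidneys and 9.41, 9.53 and 9.34 in control kidneys, a change of -1.04 ± 0.14 (adjusted p = 0.0017). In cortex it was lower in both conditions and the groups overlapped, with 7.00, 7.40 and 6.97 in congestive kidneys and 7.12, 7.42 and 6.69 in control kidneys (0.04 ± 0.14). Gatm, the amidinotransferase that makes guanidinoacetate, passed in neither region. Its outer medulla arrays were 9.74, 8.94 and 10.53 in congestive kidneys and 9.80, 9.71 and 9.72 in control kidneys. The congestive arrays lay on both sides of the control arrays, and the change of -0.01 had a 95% interval of -0.56 to 0.55.

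**Figure D2:**
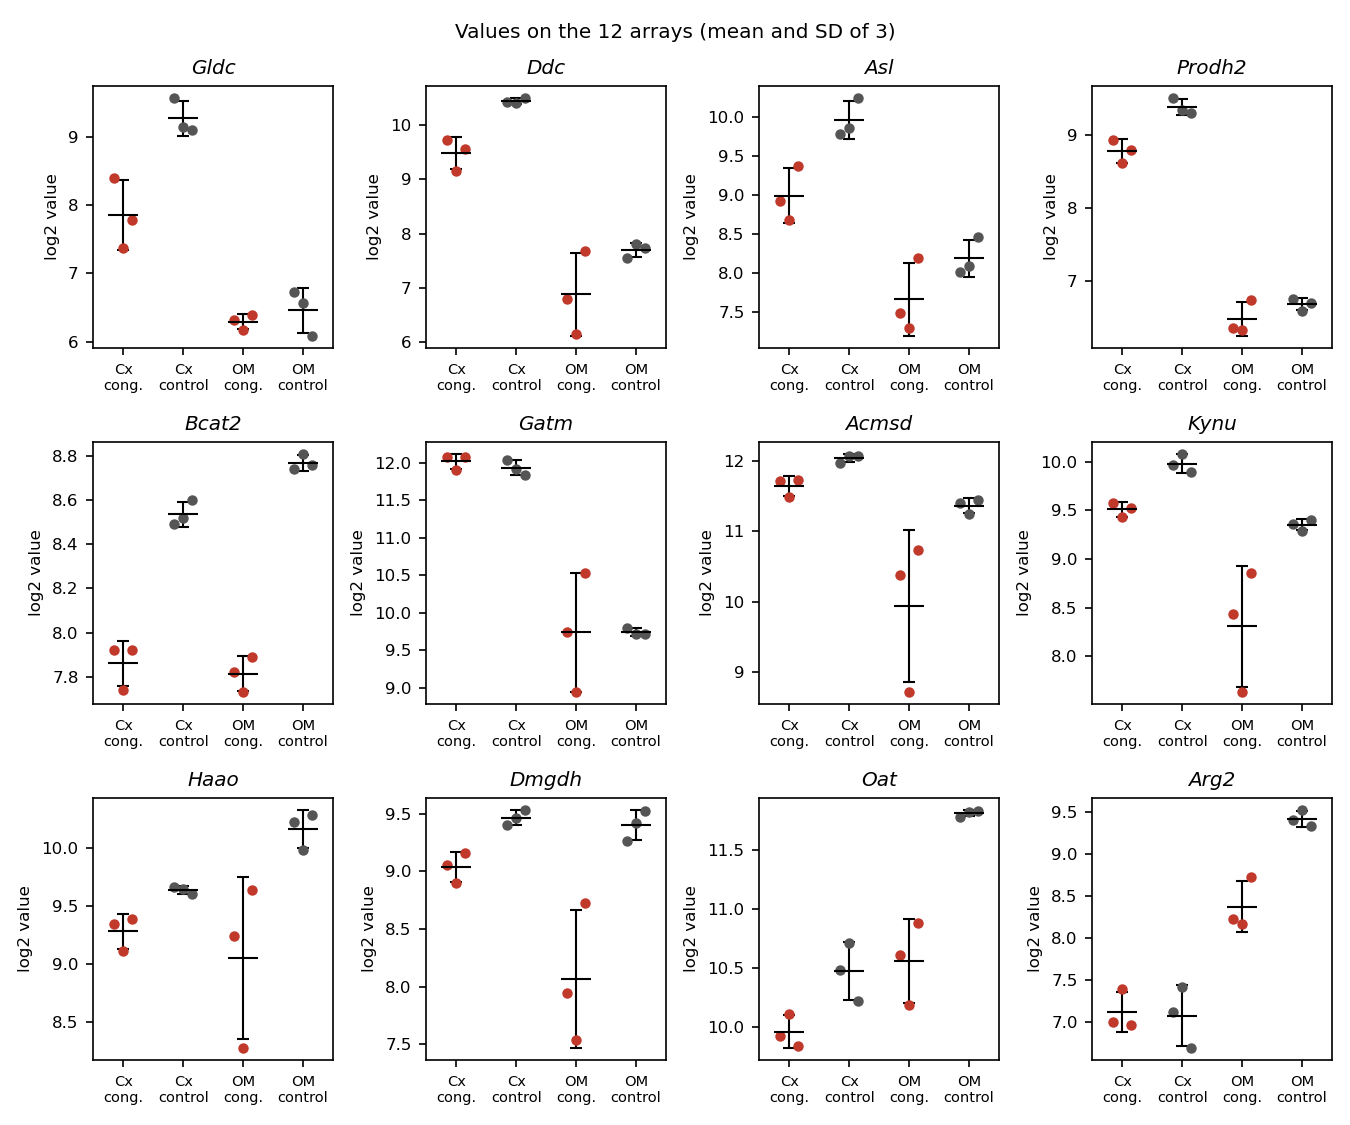
Log2 values of 12 members on the 12 arrays, with cortex (Cx) and outer medulla (OM) of congestive (cong., red) and control (grey) kidneys. Dots are replicates 1, 2 and 3 from left to right, the horizontal line is the mean of 3 and the bar the SD. Bcat2 had tight, separate groups, and Oat and Arg2 had separate groups in outer medulla. The congestive outer medulla arrays of Acmsd, Kynu, Haao and Gatm were spread widely, with replicate 2 lowest. Of these, only those of Gatm overlapped the control arrays.

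The betaine route, which moves methyl groups to homocysteine and oxidises the remaining glycine derivatives, fell in outer medulla for all 3 of its genes. Dmgdh, dimethylglycine dehydrogenase, read 7.94, 7.54 and 8.72 in outer medulla of congestive kidneys and 9.26, 9.42 and 9.52 in control kidneys. The change was -1.34 ± 0.17, or 2.53-fold (adjusted p = 0.0013). Bhmt and Sardh fell by 0.76 ± 0.14 and 0.62 ± 0.12, and without outer medulla congestion replicate 2 Sardh had -0.53 and did not pass (adjusted p = 0.058). No gene of this route passed in cortex, where 1 was lower by limma at an unadjusted p below 0.05. The methods' t-test before adjustment gave 2 lower in each region.

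Of the lysine and carnitine genes, Aass, which starts lysine breakdown, changed by -0.57 ± 0.17 in outer medulla (adjusted p = 0.042), and by -0.30 without outer medulla congestion replicate 2 (adjusted p = 0.19). Pipox and Bbox1 passed in neither region. Bbox1, which completes carnitine synthesis in liver and in human kidney, was dim, between 3.75 and 4.14 in the 12 arrays. Ddc, the decarboxylase that makes dopamine from L-DOPA in the proximal tubule, read 9.72, 9.15 and 9.56 in cortex of congestive kidneys and 10.42, 10.41 and 10.50 in control kidneys. The change was -0.97 ± 0.25 (adjusted p = 0.046), and it missed the threshold without a replicate block (adjusted p = 0.052). In outer medulla the change was -0.82 ± 0.25 (adjusted p = 0.051), with congestive arrays of 6.80, 6.15 and 7.68 that overlapped the control arrays of 7.55, 7.80 and 7.74.

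Promoters were compared because so many members moved together. RefSeq sequences on the GRCr8 build, from 250 bases before to 50 bases after the start of transcription, were at hand for 42 of the 48 members, and the first was taken where a member had several. The motifs searched, on both strands, belong to HNF1 and HNF4, transcription factors of the proximal tubule and liver, and to factors that bind the E-box. CAAAGTCCA or CAAAGGTCA, a form of the HNF4 site, was found in 4 of the 42 member promoters (9.52%), those of Bhmt, Agxt2, Pipox and Kmo, and in 0.813% of all 33469 promoters. GTTAAT of HNF1 was found in 2 (4.76%), those of Prodh2 and Hpd, and in 7.45% of all. CACGTG was found in none of the 42 and in 6.42% of all. No test was made of these shares, and a match is a description of letters only. Kmo, Agxt2 and Bhmt are among the 25 members that passed in outer medulla alone, and their differences between regions did not pass. Their promoters are shown with the HNF4 letters in capitals, starting 74, 48 and 249 bases before the start. That of Prodh2 is shown with its GTTAAT matches in capitals, starting 142 and 91 bases before the start (the match in Kmo and the first in Prodh2 lie on the opposite strand), and that of Gldc, with the largest cortical change and no match, in lower case. They lie at chr13:90089271-90089570 on the plus strand (Kmo), chr2:61063166-61063465 on the plus strand (Agxt2), chr2:26614380-26614679 on the minus strand (Bhmt), chr1:94880837-94881136 on the plus strand (Prodh2) and chr1:237375555-237375854 on the minus strand (Gldc).
Kmo: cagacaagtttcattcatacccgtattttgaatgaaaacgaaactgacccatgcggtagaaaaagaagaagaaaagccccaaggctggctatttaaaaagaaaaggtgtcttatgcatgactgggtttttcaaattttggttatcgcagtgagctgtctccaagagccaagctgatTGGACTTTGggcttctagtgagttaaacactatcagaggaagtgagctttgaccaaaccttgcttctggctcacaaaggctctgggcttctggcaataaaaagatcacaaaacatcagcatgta
Agxt2: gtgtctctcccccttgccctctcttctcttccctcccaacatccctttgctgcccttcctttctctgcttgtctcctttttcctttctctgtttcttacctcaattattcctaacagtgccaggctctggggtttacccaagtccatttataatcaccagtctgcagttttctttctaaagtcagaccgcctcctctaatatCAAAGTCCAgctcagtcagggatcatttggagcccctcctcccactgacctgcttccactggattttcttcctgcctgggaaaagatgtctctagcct
Bhmt: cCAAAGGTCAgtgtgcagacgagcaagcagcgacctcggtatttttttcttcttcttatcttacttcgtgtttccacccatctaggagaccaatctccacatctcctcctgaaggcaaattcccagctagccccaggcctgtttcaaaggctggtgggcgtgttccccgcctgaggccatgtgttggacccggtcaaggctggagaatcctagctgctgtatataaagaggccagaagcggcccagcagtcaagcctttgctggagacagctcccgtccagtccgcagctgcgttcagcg
Prodh2: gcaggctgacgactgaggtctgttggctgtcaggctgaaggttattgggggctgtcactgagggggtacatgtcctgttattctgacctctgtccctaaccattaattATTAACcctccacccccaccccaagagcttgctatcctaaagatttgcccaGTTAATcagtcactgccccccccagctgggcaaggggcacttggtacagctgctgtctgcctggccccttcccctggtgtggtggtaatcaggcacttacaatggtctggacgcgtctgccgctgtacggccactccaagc
Gldc: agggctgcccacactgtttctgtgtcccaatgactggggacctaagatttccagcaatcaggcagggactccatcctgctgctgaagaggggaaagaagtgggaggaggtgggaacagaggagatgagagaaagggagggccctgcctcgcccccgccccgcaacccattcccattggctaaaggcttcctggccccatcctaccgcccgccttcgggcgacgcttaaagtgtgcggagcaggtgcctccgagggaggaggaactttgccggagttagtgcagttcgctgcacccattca
Pipox, which also has the HNF4 letters, did not change beyond the threshold in either region (-0.08 ± 0.12 in outer medulla and 0.01 ± 0.12 in cortex).

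Whether the response of a gene differed between regions was tested by subtracting the cortex change from the outer medulla change. Of all genes, 0.804% were called higher and 0.815% lower in this comparison, and among the members 2 passed, in opposite directions. For Gldc the difference was 1.26 ± 0.23 (95% interval 0.73 to 1.79, adjusted p = 0.044), with a fall in cortex and a value of -0.16 in outer medulla. Its outer medulla arrays read 6.08 to 6.73, near the array medians of 6.02 to 6.09. Whether a fall of the cortical size could show at that level was not tested. For Arg2 the difference was -1.09 ± 0.20 (95% interval -1.56 to -0.62, adjusted p = 0.047), with a fall in outer medulla and a value of 0.04 in cortex. Both calls were lost without a replicate block (adjusted p = 0.12 for Gldc and 0.1 for Arg2) and with any replicate left out (adjusted p = 0.11 to 0.19 for Gldc and 0.053 to 0.29 for Arg2). The other members did not pass singly, although 39 of 45 had a more negative value in outer medulla than in cortex, and 49.1% of all genes did. The nearest to the threshold were Tdo2, Oat and Prodh, with differences of -0.45, -0.74 and -0.56 (adjusted p = 0.077, 0.092 and 0.099).

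In control kidneys, cortex and outer medulla already differed for 18 of the members: 12 were higher in cortex and 6 lower, where 10.1% and 11.4% of all genes were called. The largest cortical excess was that of Gldc, which was 2.82 ± 0.24 or 7.08-fold higher in cortex than in outer medulla (adjusted p = 5.1e-06). Ddc, Prodh2, Gatm and Asl followed with 2.75, 2.70, 2.19 and 1.78. In the other direction, Arg2 was lower in cortex by -2.35 ± 0.19 on the log2 scale, a 5.09-fold difference (adjusted p = 4.6e-06), and Oat by -1.34 ± 0.16, with Mccc1, Pccb and Dbt at -0.71, -0.48 and -0.30. Without replicate 1 the counts were 6 higher and 3 lower, with Mccc1, Dbt and Bcat2 lost among the lower. Dbt and Bcat2 were also lost without replicate 2 or 3.

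In congestive kidneys, 25 members were higher in cortex than in outer medulla and 2, Arg2 and Oat, were lower (9.73% and 8.96% of all genes). The count of 25 was 4 without replicate 1, 14 without replicate 2 and 25 without replicate 3, and by the methods' t-test it was 14 before adjustment and 1 after it. The median difference between cortex and outer medulla was 0.44 in congestive kidneys and 0.10 in control kidneys. For Acmsd it was 1.69 ± 0.37 in congestive kidneys and 0.67 ± 0.37 in control kidneys, and for Dmgdh 0.97 ± 0.22 in congestive kidneys and 0.06 ± 0.22 in control kidneys. Gldc went the other way, with 1.57 ± 0.24 in congestive kidneys and 2.82 ± 0.24 in control kidneys. For Arg2 the difference was -1.26 ± 0.19 in congestive kidneys and -2.35 ± 0.19 in control kidneys. Congestive set against control kidneys, these values restate the difference between regions tested above, with the sign turned. That test did not pass for Acmsd (-1.02, limma adjusted p = 0.29) or Dmgdh (-0.91, limma adjusted p = 0.13). Without outer medulla congestion replicate 2, 17 members were higher in cortex of congestive kidneys and 2 lower, with a median of 0.36, and the value for Acmsd was 1.08. Oat was not called lower in cortex of congestive kidneys without replicate 1 or 3. Early proximal tubule markers, as given above, were higher in cortex of control kidneys, and their part in the region differences of the members was not tested.

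**Figure D3:**
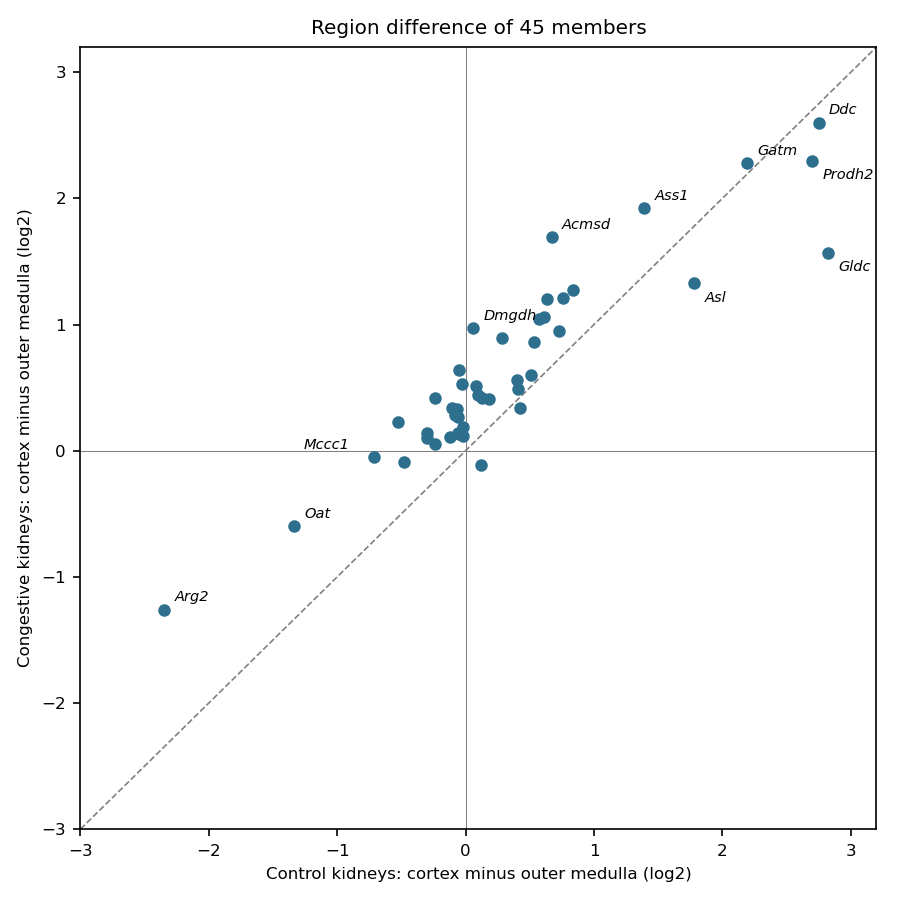
Difference between cortex and outer medulla on the log2 scale for each of the 45 members, in congestive kidneys (vertical axis) against control kidneys (horizontal axis); the dashed line marks equal differences. The 39 points above the line are the members with the more negative change in outer medulla, and Gldc, below the line, and Arg2, above it, are the 2 whose distance from it passed the test.

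The members varied most in outer medulla of congestive kidneys. Their median SD over 3 arrays was 0.35 there, 0.10 in outer medulla of control kidneys, 0.13 in cortex of congestive kidneys and 0.06 in cortex of control kidneys, while the median SD of all genes was 0.12, 0.11, 0.11 and 0.10 in the same order. Outer medulla congestion replicate 2 was the lowest array of its group for 43 of 45 members and for 30.8% of all genes, and replicate 3 was the highest for 40 members. In cortex, congestion replicate 2 was the lowest of its group for 37 members and for 34.5% of all genes. The mean log2 level over the 45 members was 8.57, 8.19 and 8.92 in outer medulla of congestive kidneys and 9.18 to 9.27 in control kidneys, and 9.08 to 9.26 in cortex of congestive kidneys and 9.53 to 9.55 in control kidneys.

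Markers of the proximal tubule, taken over all segments, moved with the members in outer medulla. All 20 measured markers had values below 0 there and 10 passed as lower, with a median change of -0.55, while 7 passed without a replicate block and 1 was lower by the methods' t-test before adjustment. Their mean level was 10.12, 9.51 and 10.65 in congestive kidneys and 10.64 to 10.68 in control kidneys, so that the congestive arrays stood in the same order as for the members. Without outer medulla congestion replicate 2, the markers had 2 of 20 lower and a median of -0.26, and the members 25 of 45 lower and a median of -0.53. In cortex none of the 20 passed with limma at an adjusted p below 0.05, with 1 lower and 1 higher at an unadjusted p below 0.05 and 9 lower by the methods' t-test before adjustment. Their mean level in cortex was 11.29 to 11.40 in congestive kidneys and 11.46 to 11.53 in control kidneys. Of 5 markers of the late straight segment, 2 passed as lower in outer medulla, where the methods' t-test gave 3 before adjustment, and none in cortex, where 0 were lower at an unadjusted p below 0.05 and 0 by the methods' t-test. Of 6 markers of the early segments, none passed as lower in either region, and Slc2a2 passed as higher in outer medulla. The methods' t-test before adjustment gave 0 lower in outer medulla and 4 in cortex. Their median changes were -0.58 in outer medulla and -0.35 in cortex. The mean level over these 6 was 8.45, 7.75 and 9.31 in outer medulla of congestive kidneys, on both sides of the 8.84 to 9.00 in control kidneys.

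Markers of the thick ascending limb and the collecting duct were mostly lower in both regions as well. In outer medulla of congestive kidneys their arrays stood in another order than for the members. Of 7 thick ascending limb genes, 5 passed as lower in outer medulla and 4 in cortex, where Ptger3 was higher. Their mean level was 10.99, 10.93 and 10.70 in outer medulla of congestive kidneys, with replicate 3 lowest, and 11.21 to 11.42 in control kidneys. In cortex it was 9.29 to 9.56 in congestive kidneys and 9.96 to 10.18 in control kidneys. Of 7 principal cell genes of the collecting duct, 5 passed as lower in outer medulla and 4 in cortex (median changes -0.38 and -0.40), and none of them passed in cortex without a replicate block. Their mean level in outer medulla of congestive kidneys was 9.03, 8.76 and 8.51, with replicate 3 lowest. Of 6 intercalated cell genes, 4 and 3 passed as lower in the same regions (medians -0.47 and -0.34). The mean level of these genes in outer medulla of congestive kidneys was 8.82, 8.39 and 8.78, with replicate 2 lowest and replicate 1 highest. Of 5 distal convoluted tubule genes, 3 passed as lower in cortex (median -0.70) and none in outer medulla, where 2 were lower by limma at an unadjusted p below 0.05 and 0 by the methods' t-test. The part of a changed share of any tubule segment in the members' values was not tested.

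**Figure D4:**
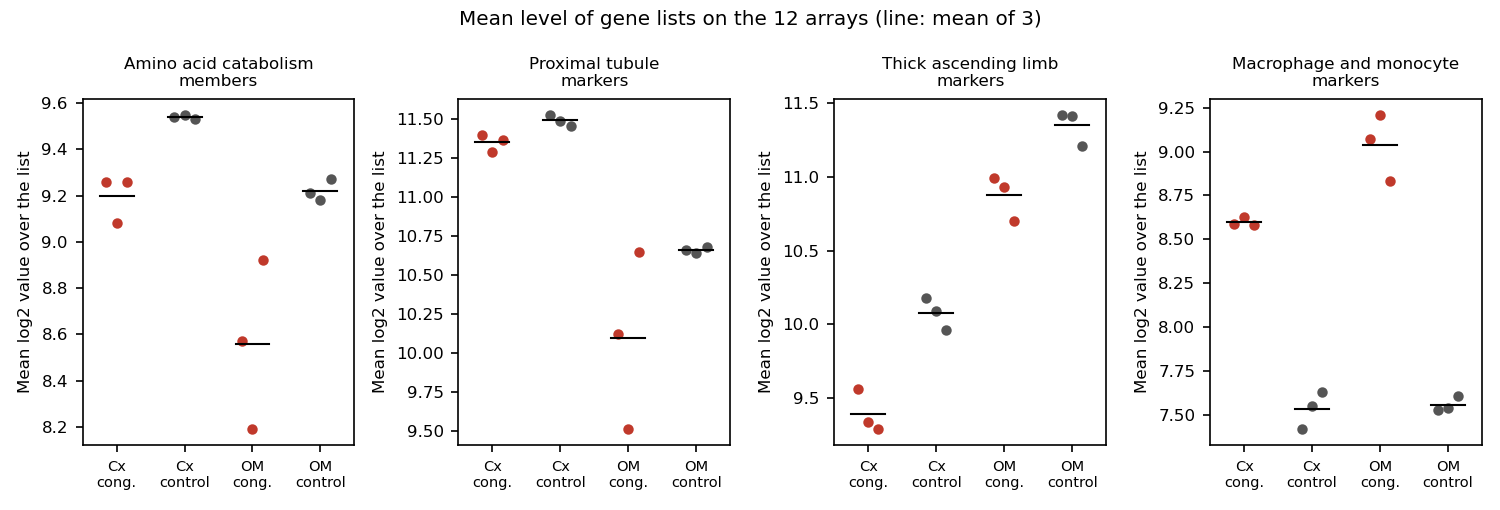
Mean log2 level of the 45 members, of 20 proximal tubule markers, of 7 thick ascending limb markers and of 12 macrophage and monocyte markers on each of the 12 arrays (dots, replicates 1 to 3 from left to right; line, mean of 3), with congestive kidneys in red and control kidneys in grey. In outer medulla of congestive kidneys the members and the proximal tubule markers share the order of the arrays, with replicate 2 lowest (8.19 and 9.51) and replicate 3 highest (8.92 and 10.65).

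The profile of the members was also shared by genes outside the list. Over the 12 arrays, the genes most like the median profile of the members were Pyroxd2, Etfa and Slc25a11, with Pearson's r of 0.994, 0.993 and 0.990. These points share region, condition and tissue make-up. Among the members, Dmgdh, Mccc2 and Kmo came closest to the median profile, with r of 0.983, 0.974 and 0.968. Oat (0.252), Tat (-0.116), Arg2 (-0.159) and Tdo2 (-0.303) were the least alike.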

How the data were processed

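The authors deposited log2 values that Affymetrix Expression Console had normalized between arrays (version and summarization not given in the sources used here), and these were used as given. The log base was inferred, since the highest value of 13.5 would exceed a scanner's range on another base. Signal over background is unknown, and 3 arrays per group limit the precision. The titles numbered the replicates, although the source names of both cortex replicate 3 arrays differ. Of 36685 rows, 18511 carry 1 symbol, 575 several and 17599 none; the brightest row per symbol gave 18166 genes.

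With limma 3.58.1 in R 4.3.3, congestive and control kidneys were compared over 6 pair blocks (4 residual and 3.96 prior degrees of freedom), and regions over 4 group means without a block (8 and 3.66), with no filter. Same-numbered kidneys of a region were taken as pairs because the study compares kidneys within subjects; the labels do not tie a number to a rat, so the pairing is inferred. Residuals of same-numbered arrays correlated with r of 0.137 and 0.344 in cortex for replicates 2 and 3 and of 0.169, 0.25 and 0.207 in outer medulla, but with -0.000317 for cortex replicate 1. Numbers across regions were not taken as pairs, although same-numbered cortex and outer medulla correlated with r of 0.339, 0.286 and 0.259 in congestive and 0.204, 0.0501 and 0.195 in control kidneys; fits with that block were alternatives. An exact permutation test of 3 against 3 cannot go below p = 0.1. The script was tested on simulated data.

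The members and lists were chosen with earlier results of these data known. Named in full are the 6 largest called falls per region and the called rise of Tdo2, each moving alike in all pairs. The called differences between regions and the 5 largest called region differences each way were named too. Other members were added after their values were seen. Alternatives were other normalization, rows, filters and blocks, each replicate left out, and the t-test called the methods' here. That it was unpaired with equal variances was a choice made here and is not stated by the study.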

Additional observations from a re-analysis of the deposited data

Results flagged for a closer look

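For 2 members the change under congestion differed between the regions by the test of the difference itself. For Gldc the outer medulla change minus the cortex change was 1.26 (limma adjusted p = 0.044), with 3 of 3 pairs lower in cortex and 2 of 3 lower in outer medulla. Its outer medulla arrays read 6.08 to 6.73, near the array medians. Whether a fall of the cortical size could show at that level was not tested. For Arg2 the same difference was -1.09 (limma adjusted p = 0.047), with 3 of 3 pairs lower in outer medulla. Both values kept their sign and lost their call when any replicate was left out, when outer medulla congestion replicate 2 alone was left out (adjusted p = 0.087 for Gldc and 0.13 for Arg2), without a replicate block and after quantile normalization.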

How the results depend on the processing

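No called member result changed sign under any alternative run, and signs of members that did not pass were not compared. In cortex, 13 members were lower and 1 higher. With replicate 1, 2 or 3 left out, 3, 3 and 5 were lower, and 0 to 1 higher; Gldc, Asl and Bcat2 were among the lower in each. The methods' t-test gave 31 lower before and 2 after Benjamini-Hochberg adjustment (0 higher after it). With no replicate block 10 were lower and 0 higher. With bright genes only, 40 members were tested and 19 were lower, and Tdo2, the member called higher, was removed by the filter. In outer medulla, 35 were lower, and leaving out replicate 1, 2 or 3 left 20, 24 and 35 (25 without outer medulla congestion replicate 2, chosen after seeing the data). With no replicate block the count was 29, and by the methods' t-test after adjustment 3. For the difference between regions, 1 was lower and 1 higher; both counts were 0 with no replicate block, with any replicate or outer medulla congestion replicate 2 left out and with quantile normalization, and 4 and 6 were lower with bright genes only and with the trend and robust options. With a replicate block across regions both calls stood. In control kidneys, 6 were lower and 12 higher in cortex (3 to 5 and 6 to 12 with a replicate left out, the lowest without replicate 1; 10 and 19 by the methods' t-test before adjustment). In congestive kidneys, 2 were lower and 25 higher (1 to 2 and 4 to 25 with a replicate left out, 4 without replicate 1 and 14 without replicate 2; 1 and 14 by the methods' t-test before and 0 and 1 after adjustment). The replicate block for kidney gave 15 and 28 higher in control and congestive kidneys. Over all genes, 2110 were called in cortex (644 to 970 with a replicate left out, 4464 and 183 by the methods' t-test before and after adjustment), 4207 in outer medulla (1957 to 3260, without outer medulla congestion replicate 2 2267, methods' t-test after adjustment 1040), 294 for the difference (0 to 43, without outer medulla congestion replicate 2 92, no replicate block 149, bright genes 653, trend and robust 785), 3905 between regions of control kidneys (1780 to 3068) and 3394 of congestive kidneys (888 to 2890, methods' t-test after adjustment 289).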

Other observations

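A further list of amino acid metabolism held 96 symbols, some of them older names of another listed gene, and 79 genes were measured. It was written from textbook knowledge, with earlier results of these data known. In outer medulla of congestive kidneys 50 fell and 4 rose, with a median change of -0.45, and in cortex 17 fell and 2 rose, with a median of -0.21. Without outer medulla congestion replicate 2, the counts in outer medulla were 34 lower and 2 higher. The background shares are those given for the members. Abat, the transaminase that breaks down GABA, read 8.42, 7.78 and 9.15 in outer medulla of congestive kidneys and 9.62, 9.66 and 9.89 in control kidneys, a change of -1.27 ± 0.19. Gnmt, glycine methyltransferase, Dhtkd1, of lysine breakdown, and Odc1, which makes putrescine from ornithine, fell there by 1.22, 1.20 and 1.20. For Odc1 the change in outer medulla differed from that in cortex (-1.10 ± 0.12, limma adjusted p = 0.011).

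In cortex the largest falls of these further genes were those of Gcat (-0.86 ± 0.13), of glycine and threonine breakdown, Suox (-0.82 ± 0.13) and Cdo1 (-0.69 ± 0.16), both of cysteine sulfur oxidation, and Phgdh (-0.69 ± 0.13), which starts serine synthesis.

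Of the further genes, Aldh18a1 and Asns rose in both regions, and Bcat1 and Cps1 in outer medulla. Without outer medulla congestion replicate 2, only 2 of the further genes were called higher in outer medulla. Among genes of serine synthesis, by contrast, Phgdh and Psph fell in cortex and Psat1 fell in outer medulla. Aldh18a1, which makes the precursor of proline and ornithine from glutamate, read 7.56, 8.10 and 7.62 in outer medulla of congestive kidneys and 6.75, 6.82 and 6.57 in control kidneys. The change was 1.05 ± 0.12 in outer medulla (limma adjusted p = 6.3e-04) and 0.56 ± 0.12 in cortex (limma adjusted p = 0.021). Asns, asparagine synthetase, rose by 0.31 ± 0.09 and 0.48 ± 0.09 in the same regions. Bcat1, the cytosolic counterpart of Bcat2, rose in outer medulla by 0.94 ± 0.14, and was dim, with 5.78 ± 0.23 in congestive kidneys and 4.84 ± 0.14 in control kidneys (SD, n = 3 each). Cps1, the first enzyme of the urea cycle, was called higher there too, by 0.75 ± 0.19.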
